A study of Mus musculus with 4 samples.

Results

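The transcription factors that set the myeloid lineage were read across 4 RNA libraries of macrophages with and without butyrate. The group was named as *Spi1*, *Cebpa*, *Cebpb*, *Cebpd*, *Cebpe*, *Irf8*, *Klf4*, *Maf* and *Gfi1*, and all 9 were found by symbol among the 16375 genes of the deposited expression file. Bone marrow cells of wt mice and of mice lacking the long noncoding RNA *lncLy6c* (LNCKO) had been grown into bone marrow-derived macrophages (BMDMs) with M-CSF, the growth factor that drives this culture. Cells of each genotype were left untreated (control) or given 500 µM butyrate, a fatty acid made by gut bacteria, and RNA was read after 24 h. According to the methods, the LNCKO line was made on a C57BL/6J background by CRISPR-Cas9 cleavage on both sides of the gene, so that LNCKO control and LNCKO butyrate carry the same deletion. Age, sex and number of the donor mice of these cultures are not given in the labels. No gene was listed as *lncLy6c*, so its loss could not be checked. The columns of the file taken as LNCKO carry library names with the parts NC and R3, which spell neither genotype nor treatment, so the LNCKO values rest on the sample titles. There was 1 library per group, so no difference below has a replicate check and no p-value was computed.

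Myeloid cells are specified by a small set of DNA-binding proteins that act in combination. PU.1 (*Spi1*) and C/EBPα open the myeloid program in progenitors, IRF8 and KLF4 direct cells towards monocytes, and GFI1 and C/EBPε direct them towards granulocytes. C/EBPβ, C/EBPδ and c-MAF act later, in activated and tissue macrophages. Butyrate inhibits histone deacetylases, and the study asked how it acts on macrophage differentiation with and without *lncLy6c*.

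Values are FPKM, the fragments of a gene per kilobase of its length and per 1000000 fragments of the library. The file gave no counts, but whole fragments could be worked out when the length was taken as the genomic span of the gene, introns included. This held for all 9 factors in all 4 libraries, within 0.05 of a whole number, and the libraries held from 53.4 to 65.5 times 1000000 fragments. The intervals given below are 95% intervals from these fragments, which cover counting error and not the difference between cultures. A library was taken to stand apart for a gene when its gap to the nearest other library was wider than the range of the other 3 on the log2 scale, a measure chosen after the values were seen. WT butyrate stood apart for 33.3% of 6807 genes, WT control for 8.49%, LNCKO control for 8.48% and LNCKO butyrate for 7.46%. Y-linked genes were near 0 in both WT libraries, with a summed FPKM of 0.136 and 0.0657, and reached 10.3 and 11.5 in the LNCKO libraries, so that genotype and sex of the donors cannot be told apart.

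The macrophage label was checked on marker genes. *Cd68*, a lysosomal protein of macrophages, had FPKM values between 306.8 and 340.0, *Csf1r*, the M-CSF receptor, between 38.3 and 46.5, and *Adgre1*, which encodes F4/80, between 5.86 and 7.45. All 8 macrophage markers of the list had a mean FPKM over 1, with a summed FPKM between 1439.4 and 3459.9. Others of the list varied more. *Lyz2*, lysozyme, ran from 869.9 in LNCKO butyrate to 2871.0 in WT butyrate, and *Cd14* from 60.0 in WT butyrate to 95.6 in LNCKO control. *Lyz2* alone made up most of the summed FPKM in each library. The same libraries held neutrophil and precursor genes, with a summed FPKM of 10 markers between 2243.2 and 3146.9, and B cell genes, with a sum of 7 markers between 163.6 and 215.7. Several of the factors below are also expressed in those cells. The sums are per kilobase of gene span, so their sizes were not compared between lists. In these bulk samples, fewer cells of a type and less RNA per cell cannot be told apart.

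Sequence at the start of these genes is shown first, since the factors are known to bind the promoters of myeloid genes. RefSeq promoter windows of GRCm38.p6, from 250 bases before to 50 bases after a start, were found for 5 of the 9 members, *Cebpa*, *Cebpb*, *Klf4*, *Gfi1* and *Irf8*, as 7 windows. They were searched on both strands for GAGGAA (the PU box), TTNNGCAA (C/EBP), GGAANNGAA (the ETS-IRF composite), GAAANNGAA (IRF), AAATCA (GFI1), TGCTGA (MAF) and CACCC (KLF). Of the 7 windows, 0 held the PU box, which 28.3% of all 32851 windows held, and 0 held the ETS-IRF or IRF letters, held by 8.24% and 8.56% of all windows. Matches are printed for *Gfi1*, the member whose level varied most, and for *Irf8* and *Cebpb*, with the matching letters in capitals and each read 5′ to 3′ along the gene's strand.
Gfi1 at chr5:107725931-107725958 (minus strand), C/EBP letters: gaaggtaggtTTGCTGAActgctgtgcc
Irf8 at chr8:120736172-120736199 (plus strand), GFI1 letters: acgtgcaaaagTGATTTctcggaaagag
Irf8 at chr8:120738402-120738429 (plus strand), GFI1 letters: agccgtcttgaTGATTTgcttgagaggt
Cebpb at chr2:167688727-167688754 (plus strand), KLF letters: cgggctggcgtCACCCgcgtccgtggcc
The *Gfi1* match starts 143 bases before the RefSeq start of its window, lies on the other strand, and overlaps MAF letters on the gene's strand. GENCODE starts the gene farther upstream, at position 107726036, so that the match lies inside the GENCODE span. The second *Irf8* match belongs to a RefSeq start inside the gene. The *Gfi1* window was the 1 member window with C/EBP letters, which 10.8% of all windows held. The GFI1 letters were in 2 of the 7 windows, both of *Irf8*, and in 14.0% of all windows. The MAF letters were in 2 windows, of *Gfi1* and *Irf8*, and in 19.5% of all, and the KLF letters were in 3, of *Cebpb*, *Gfi1* and *Cebpa*, and in 57.5% of all. These matches describe letters in a window and not binding.

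The order of the levels depended on the length used. On the deposited scale, per kilobase of gene span, *Cebpb* was highest with a mean FPKM over the 4 libraries of 143.1 and *Gfi1* lowest with 2.11. *Spi1* ranked 7 of 9 on that scale, at 9.32. Its span of 33367 bases is 12.4 times its 2695 bases of exons, whereas *Cebpa*, *Cebpb* and *Cebpd* have 1 exon and no intron. Per kilobase of exons, *Spi1* ranked 2 with a mean of 115.4, higher than 97.8% of the annotated genes. That scale assumes that the counted fragments fell in exons, which the sources do not state.

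Per kilobase of exons, the order of the mean levels was *Cebpb* (143.1), *Spi1* (115.4), *Irf8* (73.8), *Maf* (66.7), *Cebpa* (36.5), *Cebpe* (18.1), *Cebpd* (10.8), *Klf4* (7.71) and *Gfi1* (6.22). Each library taken alone gave this same order. The ranges over the 4 libraries overlapped for 1 pair of neighbours, *Irf8* from 72.0 to 76.5 and *Maf* from 63.8 to 74.4. *Spi1*, *Irf8* and *Maf* thus lay above the granulocyte factors *Cebpe* and *Gfi1*, while *Klf4* lay between these.

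**Figure D1:**
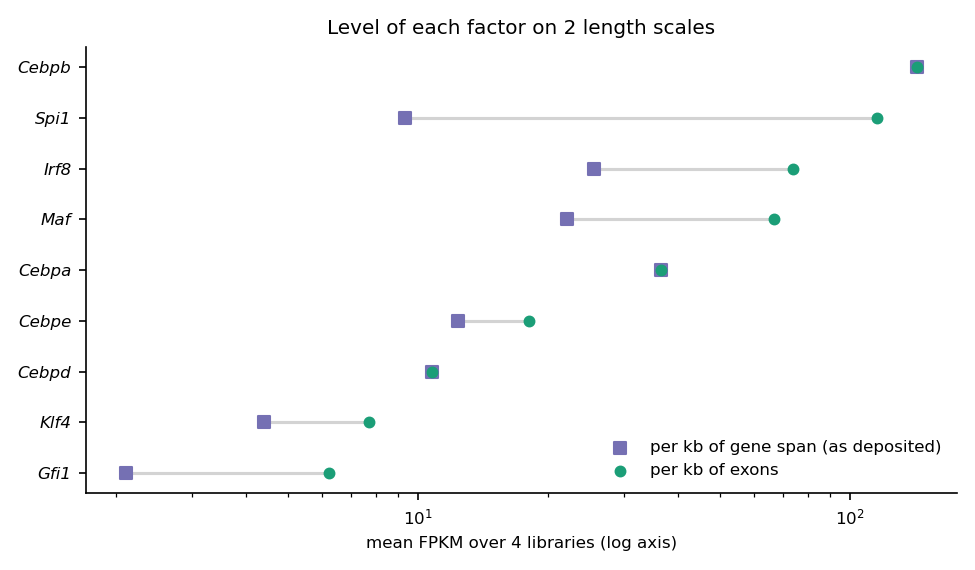
Mean FPKM of each factor over the 4 libraries on a log axis, per kilobase of gene span as deposited and per kilobase of exons. Spi1 moves from 9.32 to 115.4, while the single-exon genes Cebpa, Cebpb and Cebpd keep the same value on both scales.

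Within the C/EBP family, *Cebpb* made up 65.9% of the summed level of the 4 members per kilobase of exons in WT control, 68.6% after butyrate in WT, and 68.8% and 71.0% without and with butyrate in LNCKO. *Cebpa* was the next, from 17.0% to 18.2%. *Cebpe* held 6.92% in LNCKO butyrate and between 9.09% and 9.60% in the other 3 libraries. The summed level of the family was 197.0 in WT control and between 209.8 and 214.3 in the others.

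None of the 9 factors differed by as much as 2-fold in any of the 4 comparisons. The widest ratio of the highest to the lowest library was 1.40, for *Gfi1*, followed by 1.36 for *Cebpe*, 1.27 for *Cebpd* and 1.26 for *Klf4*. It was 1.04 for *Cebpa*, 1.06 for *Irf8* and 1.09 for *Spi1*. Among all genes whose mean FPKM was 1 or more, 0.72% were past 2-fold in either direction with butyrate in WT, 0.308% with butyrate in LNCKO, 0.382% between LNCKO and WT without butyrate and 0.911% between LNCKO and WT under butyrate. A narrower limit was therefore also counted, at least 25% higher or, in the other direction, at least 20% lower.

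**Figure D2:**
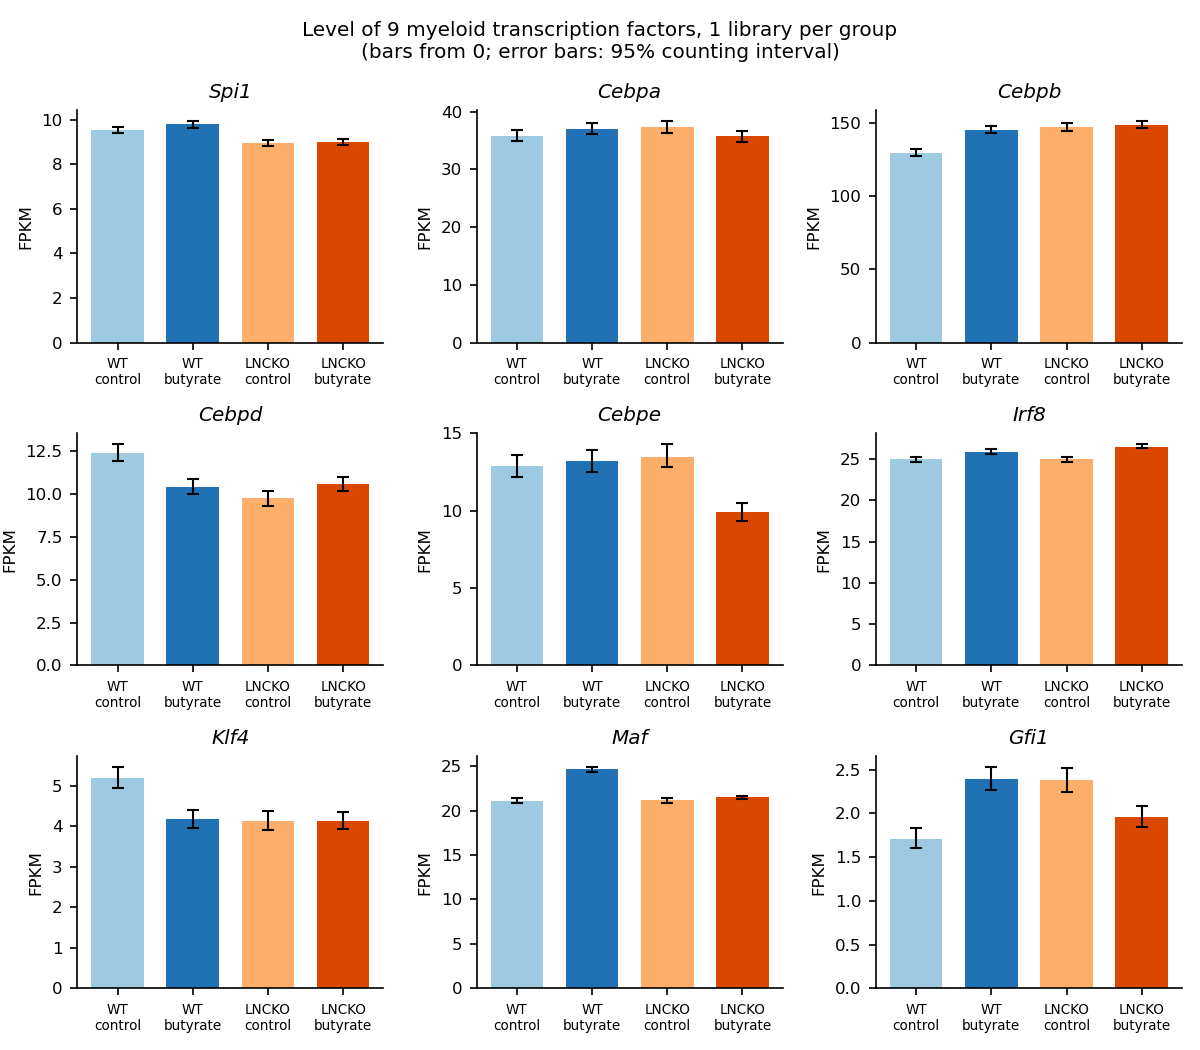
FPKM of each of the 9 factors (vertical axes, from 0) in the 4 libraries, with 95% counting intervals as error bars. Klf4 and Cebpd are highest and Cebpb and Gfi1 lowest in WT control, Maf is highest in WT butyrate, and Cebpe is lowest in LNCKO butyrate.

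*Spi1*, *Cebpa* and *Irf8* varied little. *Spi1*, which encodes PU.1, the ETS-family factor of myeloid and B cells, had FPKM values of 9.53 without and 9.79 with butyrate in WT, and of 8.94 and 9.01 in LNCKO. Both LNCKO libraries were below both WT libraries. The log2 ratio of LNCKO to WT was -0.09 without butyrate (interval -0.12 to -0.06) and -0.12 under butyrate (interval -0.15 to -0.09), and it stayed below 0 under each scaling tried. The log2 ratio with butyrate was 0.04 in WT and 0.01 in LNCKO, and both turned below 0 when the libraries were brought to the same sum of FPKM.

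*Cebpa*, required for granulocyte and monocyte progenitors, had 35.8 FPKM without and 37.0 with butyrate in WT, and 37.3 and 35.7 in LNCKO. Genotypes and treatments overlapped. *Irf8*, a partner of PU.1 in monocytes, dendritic cells and B cells, had 25.0 and 25.9 in WT, and 25.0 and 26.5 in LNCKO, so that both butyrate libraries were above both controls. Its log2 ratio with butyrate was 0.09 in LNCKO (interval 0.06 to 0.11), above 0 under each scaling, and 0.05 in WT, which turned below 0 with equal sums. *Irf8* lies wholly inside Gm20388, a longer gene of the same strand, and how fragments shared with it were counted is not known.

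*Cebpb*, the factor of stress-induced granulocyte formation and macrophage activation, was lowest in WT control. It had 129.9 FPKM there and 145.8 after butyrate, against 147.5 and 149.0 in LNCKO. WT control stood apart from 3 similar libraries. The log2 ratio with butyrate was 0.17 in WT (interval 0.13 to 0.20), while in LNCKO it was 0.01, with a sign that changed with equal sums. LNCKO was 0.18 above WT without butyrate (interval 0.15 to 0.22), a comparison that shares the WT control library with the first. On the opposite strand, *Tmem189* covers 60.4% of the *Cebpb* span, with FPKM values from 2.54 to 2.71, and whether strand was used in counting is not given in the sources used here.

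*Cebpd*, induced in acute inflammation, was highest in WT control. It had 12.4 FPKM there and 10.4 after butyrate, against 9.74 without and 10.6 with butyrate in LNCKO, so that WT control again stood apart. With butyrate, its log2 ratio was -0.24 in WT (interval -0.33 to -0.16) and 0.12 in LNCKO (interval 0.04 to 0.21). Without butyrate it was -0.34 for LNCKO against WT (interval -0.43 to -0.26), and 1.73% of genes had a lower ratio. Under butyrate the genotypes differed by 0.02, with a sign that depended on scaling. *Spidr*, on the other strand, overlaps 48.3% of the *Cebpd* span and had FPKM values from 0.117 to 0.147.

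*Klf4*, a zinc finger factor needed for monocyte differentiation, was likewise highest in WT control. Its FPKM was 5.20 there and 4.18 after butyrate, and 4.14 in both LNCKO libraries. WT control stood above 3 nearly equal libraries. The log2 ratio was -0.31 with butyrate in WT (interval -0.42 to -0.21) and -0.33 for LNCKO against WT without butyrate (interval -0.44 to -0.22), values that share the WT control. The log2 ratio with butyrate in LNCKO was 0.00 and that of LNCKO to WT under butyrate -0.01, and the sign of both changed with scaling.

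WT control thus stood apart for 3 of the 9 factors, *Cebpb*, *Cebpd* and *Klf4*, beside 8.49% of all genes. WT butyrate stood apart for 1 of 9, *Maf*, beside 33.3% of all genes, and LNCKO butyrate for 1, *Cebpe*, beside 7.46%. LNCKO control stood apart for 0 factors, beside 8.48% of all genes. With 1 library per group, a condition and its culture cannot be told apart.

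*Maf* was highest with butyrate in WT. It encodes c-MAF, a large MAF factor of tissue macrophages that drives *Il10* and complement C1q genes. Its FPKM was 21.1 without and 24.7 with butyrate in WT, and 21.2 and 21.5 in LNCKO. Butyrate libraries gave a log2 ratio to control of 0.22 in WT (interval 0.20 to 0.24), higher than for 90.8% of genes, and 0.02 in LNCKO (interval -0.00 to 0.04). Under butyrate, the log2 ratio of LNCKO to WT was -0.20 (interval -0.22 to -0.18). Without butyrate it was 0.00, with a sign that changed with scaling.

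Targets of c-MAF were read in the same libraries. Of 7 genes known as targets of MAF factors, 6 had a mean FPKM of 1 or more, and with butyrate in WT 4 of these were at least 25% higher and 0 were at least 20% lower, beside 4.99% and 7.27% of all genes, while in LNCKO 0 passed either limit, beside 2.01% and 1.48%. The 4 became 2 with equal sums of FPKM, since *C1qa* and *C1qb* lay just past the limit. The complement gene *C1qa* had 179.1 and 225.0 in WT, and 176.8 and 185.9 in LNCKO, and *C1qb* had 119.4 and 149.2 in WT, and 114.6 and 113.5 in LNCKO. WT butyrate was the highest library for both. *Folr2*, a folate receptor of resident macrophages, had the widest ratio of the 6 with butyrate in WT, 0.99 on the log2 scale, and *Il10* had 0.45 in WT and -0.25 in LNCKO. Without butyrate 2 of the 6 were higher in LNCKO than in WT, *Il10* and *Folr2*, beside 2.78% of all genes. Under butyrate 1 was lower, *C1qb*, beside 4.7% of all genes, or 4 with libraries scaled by their median ratio. The median log2 ratio of the 6 with butyrate was 0.33 in WT and 0.02 in LNCKO, beside -0.06 and -0.02 over all genes.

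The small MAF genes *Mafg* and *Mafk*, which pair with other factors and lack an activation domain, were also read. *Mafg* had a log2 ratio with butyrate in WT of -0.34, past the limit, and *Mafk* of -0.30, just short of it, while with the median ratio neither passed and with equal sums both did. In LNCKO the log2 ratios with butyrate were -0.07 and 0.13. Under butyrate *Mafk* was higher in LNCKO than in WT, by 0.42, and *Mafg* had 0.31.

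*Gfi1* had the widest ratio of highest to lowest library, although *Cebpe* differed more in both comparisons that use LNCKO butyrate. GFI1 is a zinc finger repressor that restrains monocyte genes during granulocyte formation and is also expressed in early B and T cells. Its FPKM was 1.71 in WT control (905 fragments) and 2.40 after butyrate (1331 fragments), and in LNCKO 2.38 without (1192 fragments) and 1.96 with butyrate (1207 fragments). WT butyrate and LNCKO control were nearly level, and WT control was the lowest. The log2 ratio with butyrate was 0.49 in WT (interval 0.36 to 0.61), above 98.0% of genes, and -0.28 in LNCKO (interval -0.39 to -0.16), above 2.25% of genes. For LNCKO against WT it was 0.48 without butyrate (interval 0.35 to 0.60) and -0.29 under butyrate (interval -0.40 to -0.17). A noncoding gene on the other strand, A430072P03Rik, overlaps 9.38% of the *Gfi1* span. *Gfi1b*, the paralog of *Gfi1* in red cell and platelet precursors, had a mean FPKM of 0.125.

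*Cebpe*, needed for late granulocytes and their secondary granules, was lowest in LNCKO butyrate. Its FPKM was 12.9 without and 13.2 with butyrate in WT, and 13.5 and 9.93 in LNCKO. LNCKO butyrate stood apart from the other 3. Its log2 ratio with butyrate was -0.45 in LNCKO (interval -0.56 to -0.33), and 0.485% of genes had a lower ratio. In WT it was 0.03 (interval -0.08 to 0.14), with a sign that changed with equal sums. For LNCKO against WT it was -0.41 under butyrate (interval -0.53 to -0.30) and 0.07 without it (interval -0.04 to 0.18).

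Granule genes were read beside these granulocyte factors. The primary granule genes, made in early granulocyte precursors, had a median log2 ratio with butyrate of 0.24 in WT, where 1 of 4 passed the limit as higher (2 with the median ratio), beside 4.99% of all genes, and 0 as lower, and of -0.05 in LNCKO, where 0 passed (1 as lower with equal sums). *Elane*, the neutrophil elastase gene that GFI1 is known to repress, had 173.7 FPKM without and 278.3 with butyrate in WT, and 190.3 and 185.5 in LNCKO. *Mpo*, myeloperoxidase, had 92.3 and 114.7 in WT, and 105.5 and 84.6 in LNCKO. For both genes WT butyrate was the highest library. Under butyrate 2 of the 4 were lower in LNCKO than in WT, beside 4.7% of all genes, and 0 were higher, beside 7.7%. *Elane* was lower by a log2 ratio of -0.58 and *Mpo* by -0.44. Between the controls 0 of 4 passed.

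Of the 5 secondary granule genes, known targets of C/EBPε, 2 were higher and 2 lower (1 with the median ratio) with butyrate in WT, beside 4.99% and 7.27% of all genes. *Mmp8*, a collagenase, had a log2 ratio of 1.15 and *Lcn2* of 0.43, while *Camp*, the cathelicidin gene, had -0.45. In LNCKO, where *Cebpe* was lower with butyrate, 0 of 5 passed, and the ratio farthest from 0 was -0.28, of *Ltf*, the lactoferrin gene. Between the controls 0 passed. Under butyrate 1 was higher (0 with the median ratio) and 3 were lower in LNCKO, beside 7.7% and 4.7% of all genes. The 10 neutrophil and precursor markers hold 6 of these granule genes. With butyrate in WT 4 of the 10 were higher and 2 lower, beside 4.99% and 7.27% of all genes. With the median ratio 5 were higher and 1 lower. In LNCKO 1 was higher with butyrate, beside 2.01% of all genes, and with equal sums 0 were higher and 1 lower. Between LNCKO and WT, 1 was lower without butyrate (2 with the median ratio), beside 2.03% of all genes. Under butyrate 1 was higher (0 with the median ratio) and 7 were lower in LNCKO, beside 7.7% and 4.7% of all genes. The part of such cells in the values of *Gfi1* and *Cebpe* was not tested.

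**Figure D3:**
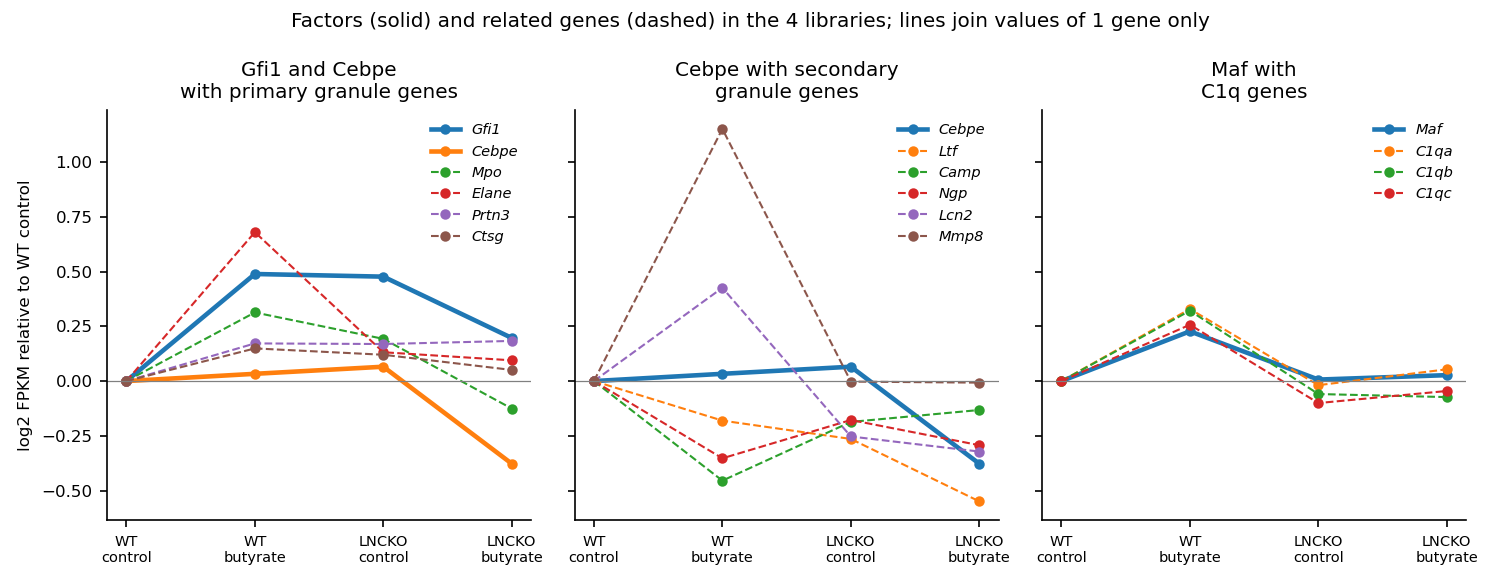
Log2 FPKM relative to WT control (vertical axis) in the 4 libraries for factors (solid lines) and related genes (dashed lines). In WT butyrate Gfi1 and Maf lie above 0, and in LNCKO butyrate Cebpe lies below 0.

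Counted over all 9 factors, 1 was at least 25% higher with butyrate in WT (*Gfi1*), beside 4.99% of 6807 genes, and 0 were at least 20% lower, beside 7.27%. In LNCKO, 0 were higher, beside 2.01% of 6808 genes, and 1 was lower (*Cebpe*), beside 1.48%. Without butyrate, LNCKO had 1 factor higher than WT (*Gfi1*), beside 2.78% of genes, and 2 lower (*Cebpd* and *Klf4*, the latter not with equal sums), beside 2.03%. Under butyrate it had 0 higher, beside 7.7% of genes, and 1 lower (*Cebpe*), beside 4.7%. Scaling moved the background itself. Of all genes past either limit with butyrate in WT, 40.7% were higher, and this became 60.7% with libraries scaled by their median ratio and 24.5% with equal sums. Between LNCKO and WT under butyrate it was 62.1%, which became 44.2% and 73.6%.

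**Figure D4:**
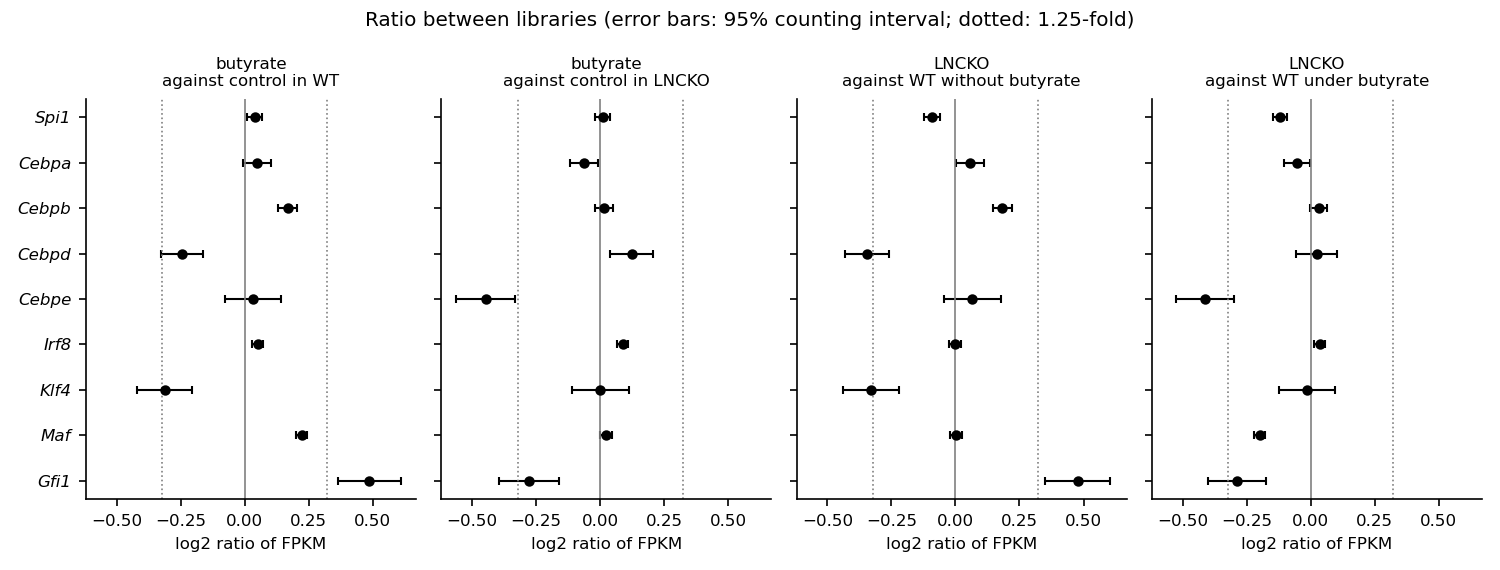
Log2 ratio of FPKM (horizontal axes) of each factor in the 4 comparisons, with 95% counting intervals as error bars and dotted lines at the limits of 25% higher and 20% lower. Gfi1 lies right of the dotted line with butyrate in WT and in LNCKO against WT without butyrate, and Cebpe lies left of it in both comparisons that use LNCKO butyrate.

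The median log2 ratio of the 9 factors with butyrate was 0.05 in WT, beside -0.06 over all genes, and 0.01 in LNCKO, beside -0.02. Between LNCKO and WT it was 0.00 without butyrate, beside 0.02, and -0.05 under butyrate, beside 0.06. In size, regardless of direction, the median with butyrate was 0.17 in WT and 0.06 in LNCKO, beside 0.12 and 0.07 over all genes. As deposited, 7 of 9 factors were above 0 with butyrate in WT, and 3 of 9 with equal sums, where *Spi1*, *Cebpa*, *Cebpe* and *Irf8* changed sign. Those 4 had log2 ratios of at most 0.05.

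**Figure D5:**
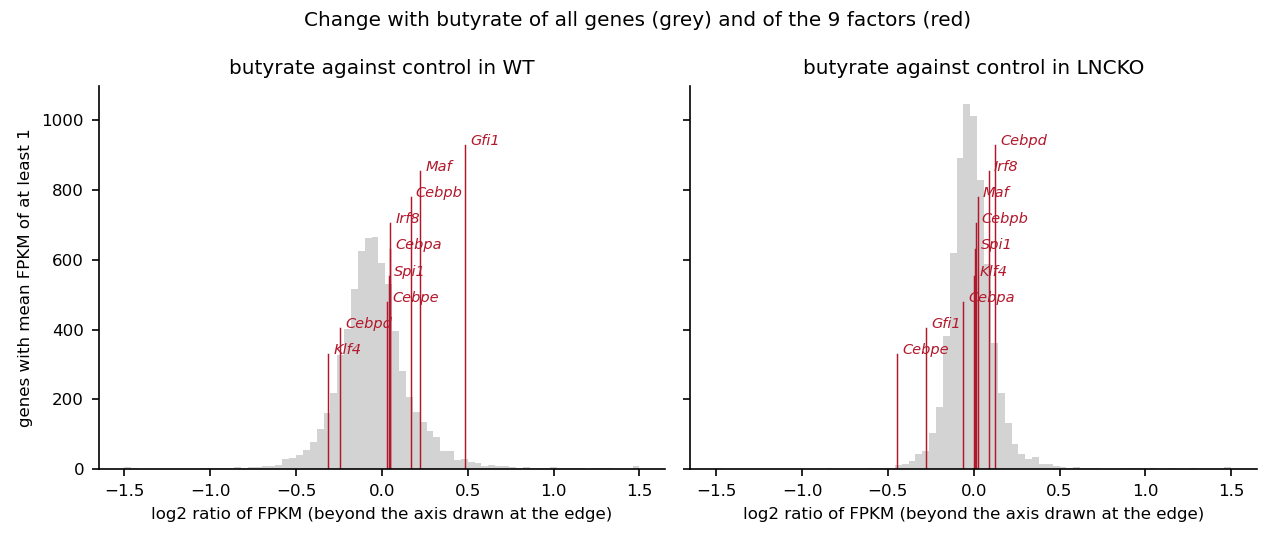
Number of genes (vertical axis) by log2 ratio of FPKM with butyrate (horizontal axis) in WT and in LNCKO, in grey, with the 9 factors as red lines of arbitrary height. In WT the factors spread from -0.31 (Klf4) to 0.49 (Gfi1), and in LNCKO from -0.45 (Cebpe) to 0.12 (Cebpd).

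The difference in butyrate response between the genotypes, the log2 ratio in WT minus that in LNCKO, was largest among the 9 factors for *Gfi1* at 0.76 (interval 0.60 to 0.93), larger in size than for 98.2% of genes. It was 0.48 for *Cebpe* (interval 0.32 to 0.64), 0.20 for *Maf* (interval 0.17 to 0.23) and 0.15 for *Cebpb* (interval 0.10 to 0.20). It was -0.37 for *Cebpd* (interval -0.48 to -0.25) and -0.31 for *Klf4* (interval -0.47 to -0.16). For *Cebpa* it was 0.11, for *Spi1* 0.03 and for *Irf8* -0.04. The difference between the genotypes was not tested.

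Relatives of the factors were described from lists by family. Among 11 ETS factors of blood cells, 8 had a mean FPKM of 1 or more, and with butyrate in WT 0 were at least 25% higher and 2 at least 20% lower, beside 4.99% and 7.27% of all genes. With the median ratio the 2 became 0. *Spib*, the close relative of *Spi1* in B cells and plasmacytoid dendritic cells, had 59.0 FPKM without and 45.4 with butyrate in WT, and 60.6 and 62.7 in LNCKO, and *Ets1* had a log2 ratio of -0.35 in WT. In LNCKO 0 of 8 passed. Without butyrate 1 was higher in LNCKO than in WT, *Ets2* by 0.38, beside 2.78% of all genes. Under butyrate 2 were higher, *Spib* by 0.46 and *Ets1* by 0.39, with 0 lower, beside 7.7% and 4.7% of all genes.

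Of 8 other IRF genes, 7 were at 1 or more. With butyrate in WT 1 was lower and 0 higher (1 with the median ratio), beside 7.27% and 4.99% of all genes. In LNCKO and between the controls 0 passed, and under butyrate 1 was higher in LNCKO, beside 7.7% of all genes. The gene was *Irf4*, a PU.1 partner of B cells, with 4.03 FPKM without and 2.68 with butyrate in WT, and 4.24 and 3.96 in LNCKO. WT butyrate was lowest for both *Spib* and *Irf4*. B cell markers differed beside them. Of the 5 B cell markers at 1 or more, 3 were lower with butyrate in WT, beside 7.27% of all genes, and 0 passed in LNCKO or between the controls. Under butyrate 4 were higher in LNCKO (3 with the median ratio), beside 7.7% of all genes, and the summed FPKM of all 7 was lowest in WT butyrate at 163.6. *Cd79a*, a subunit of the B cell receptor, had 68.3 and 51.3 in WT, and 69.3 and 69.2 in LNCKO. The part of B cells in these values was not tested.

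Of 8 other KLF genes, 6 were at 1 or more. With butyrate in WT 0 were higher and 1 was lower, *Klf10* by a log2 ratio of -0.33 (0 with the median ratio), beside 7.27% of all genes. In LNCKO and between the controls 0 passed. Under butyrate 1 was higher in LNCKO, again *Klf10*, by 0.47, beside 7.7% of all genes. *Klf2*, a factor of quiescent lymphocytes and monocytes, had 42.1 FPKM without and 35.5 with butyrate in WT, and 39.4 and 40.6 in LNCKO. Of 4 C/EBP relatives and regulators, 3 were at 1 or more and 0 passed with butyrate in either genotype. *Trib1*, which targets C/EBPα for degradation, was higher in LNCKO than in WT by 0.34 without and 0.47 under butyrate. *Ddit3*, a stress-induced C/EBP that blocks its relatives, was higher by 0.35 under butyrate, where the 2 became 1 with the median ratio. Of all genes, 2.78% were higher in LNCKO without and 7.7% under butyrate. *Cebpg* had FPKM values between 6.89 and 7.54. The corepressors of GFI1, *Kdm1a*, *Rcor1*, *Hdac1* and *Hdac2*, were all at 1 or more and 0 of 4 passed in any comparison.

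Genes known to depend on PU.1 and C/EBPα were read beside these factors. Of 8 receptor and adhesion genes, all were at 1 or more and 1 was at least 25% higher with butyrate in WT, *Csf3r*, the G-CSF receptor, by a log2 ratio of 0.40, and 0 were lower. That share is near the 12.3% of all genes past either limit in this comparison. In the other 3 comparisons 0 passed, and with the median ratio 3 were lower in LNCKO under butyrate. *Csf1r* had 46.5 FPKM in both WT libraries, and 40.8 without and 38.3 with butyrate in LNCKO. It was lower in both LNCKO libraries than in both WT libraries, as *Spi1* was. *Itgam*, which encodes CD11b, had between 20.2 and 24.3.

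Monocyte genes were read beside *Klf4* and *Irf8*. Of 7, 6 were at 1 or more, and with butyrate in WT 4 were at least 25% higher (3 with equal sums) and 0 lower, beside 4.99% and 7.27% of all genes, whereas in LNCKO and between the controls 0 passed. The gene under 1, *Cx3cr1*, the fractalkine receptor, had 0.826 FPKM without and 0.482 with butyrate in WT, from 7842 and 4799 fragments, and 0.652 and 0.647 in LNCKO. Under butyrate 3 were lower in LNCKO than in WT, *Fn1*, *Vcan* and *F13a1*, beside 4.7% of all genes. *Ly6c2*, which encodes the Ly6C antigen of inflammatory monocytes, had 727.8 FPKM without and 916.1 with butyrate in WT, and 752.4 and 807.0 in LNCKO. WT butyrate was the highest library for *Ly6c2*, whereas *Klf4* was highest in WT control.

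Genes that C/EBPβ and C/EBPδ are known to activate included wider ratios than the factors. Of 6, 4 were at 1 or more. With butyrate in WT 2 were higher, *Saa3* by a log2 ratio of 1.06 and *Il1b* by 0.38, beside 4.99% of all genes, and in LNCKO 2 were, *Arg1* by 0.72 and *Ptgs2* by 0.54, beside 2.01%. As deposited 0 were lower in either, and with equal sums 1 was in WT. *Saa3*, an acute phase protein, had 221.1 FPKM without and 460.8 with butyrate in WT, and 263.7 and 320.9 in LNCKO. *Arg1*, arginase, had 3.33 and 2.74 in WT, and 7.05 and 11.6 in LNCKO, with both LNCKO libraries above both WT libraries. Without butyrate 3 were higher in LNCKO than in WT, *Arg1*, *Ptgs2* and *Il1b* (2 with the median ratio), beside 2.78% of all genes. Under butyrate 2 were higher and 1, *Saa3*, was lower, beside 7.7% and 4.7%.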

How the data were processed

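RNA of bone marrow-derived macrophages was sequenced in 4 groups with 1 library each. The authors deposited FPKM values per gene and no counts. The methods name an MGISEQ-2000 and the labels Illumina protocols. The submitters' processing notes name STAR 2.5.0c, Picard 1.126, bedtools 2.17.0, HTSeq 0.6.0, DESeq2 3.0 and GRCm38, without their roles.

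Gene spans and exon lengths were taken from GENCODE M21 (GRCm38), which matched 16342 of 16375 genes. For each library, the total that turned most values into whole fragments was found, after which 98.6% of matched genes were whole in all 4 libraries on the span, against 7.48% on the exon length. Ratios are log2 ratios of FPKM with no pseudocount, without genes at 0 in either library. Shares of all genes were taken over genes averaging 1 FPKM or more. Intervals are exact Clopper-Pearson intervals at 95% for a ratio and exact Poisson intervals for a level. Those for the difference in butyrate response between the genotypes used a normal approximation from the fragments of all 4 libraries. Fragments carry no molecular identifiers, so intervals cover counting error only. With 1 library per group no test was run.

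The factors and the gene lists were chosen with earlier results of these data known. The genes named are the factors, chosen relatives, genes overlapping a factor, genes of nearest profile, and up to 4 genes per list with the largest ratios. *Cd68*, *Cx3cr1*, *Dcn*, *Cxcl12* and *Col3a1* were added after values were seen. The scripts were tested on simulated data. Alternatives were pseudocounts of 1 and 0.1, 2 scalings, other filters and exon length. Protein sequences were not used here, and some results are not reported here. Python 3.11.15, numpy 2.4.6, pandas 2.3.3, scipy 1.17.1 and matplotlib 3.10.9 were used.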

Additional observations from a re-analysis of the deposited data

Results flagged for a closer look

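*Gfi1* lay on opposite sides of 0 with butyrate in the genotypes. The log2 ratio in WT minus that in LNCKO was 0.76, with 1.71 FPKM without and 2.40 with butyrate in WT, and 2.38 and 1.96 in LNCKO. The difference rests on 1 library per group and was not tested.

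*Cebpd* lay on opposite sides of 0 as well, with a difference of -0.37. It had 12.4 FPKM without and 10.4 with butyrate in WT, and 9.74 and 10.6 in LNCKO, and this difference was not tested either. *Cebpe* (0.03 in WT and -0.45 in LNCKO), *Cebpa* (0.05 and -0.06) and *Klf4* (-0.31 and 0.0013) had opposite signs too. For *Cebpe* and *Cebpa* the interval in WT held 0, and for *Klf4* that in LNCKO.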

How the results depend on the processing

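No paired analysis was possible because each group has 1 library, and no library could be left out. With libraries scaled by their median ratio, the median log2 ratio of the 9 factors with butyrate in WT went from 0.05 to 0.11, and 2 factors instead of 1 (*Cebpe* and *Gfi1*) passed the limit of 25% higher or 20% lower between the genotypes under butyrate. With equal sums of FPKM, that median was -0.0070, and 2 factors instead of 1 passed with butyrate in WT, *Klf4* being added, while between the controls *Klf4* no longer passed, at -0.32, which left 2 of 3. With log2 of FPKM + 1, 0 factors instead of 3 passed between the controls. By rank of level, per kilobase of exons instead of span, *Spi1* went from 7 to 2, *Cebpa* from 2 to 5, *Cebpd* from 6 to 7 and *Cebpe* from 5 to 6. Of the 36 log2 ratios of single factors in the 4 comparisons, 36 stayed within their counting interval with a pseudocount of 0.1, 34 with 1, 26 with the median ratio and 27 with equal sums. Counts over the gene lists under both scalings, added after seeing the data, are given beside several of the lists. The share of all genes past the limit depended on the filter. It was 12.3% with butyrate in WT, 3.50% in LNCKO, 4.80% between the controls and 12.4% between the genotypes under butyrate, and without a filter on low values 30.8%, 20.3%, 22.4% and 30.2%. At 5 FPKM or more it was 1.85% with butyrate in LNCKO and 3.07% between the controls. The lowest number of fragments behind a factor's value was 905, for *Gfi1* in WT control.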

Other observations

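Other transcription factors of blood lineages included wider ratios than the 9 factors. Of 22, 14 had a mean FPKM of 1 or more. With butyrate in WT 1 was at least 25% higher, beside 4.99% of all genes. This was *Myc*, a driver of cell growth, with 8.28 FPKM without and 15.6 with butyrate in WT, and 11.2 and 10.4 in LNCKO. In WT 3 were at least 20% lower (4 with equal sums), beside 7.27% of all genes. The 3 were *Egr2*, by a log2 ratio of -0.86, *Nr4a1* by -0.72 and *Nr1h3* by -0.42. In LNCKO 0 were higher and 2 lower (1 with the median ratio), beside 2.01% and 1.48% of all genes. The 2 were *Nr4a1*, by -0.40, and *Egr2*, by -0.32. Between the controls 6 were higher in LNCKO and 0 lower, beside 2.78% and 2.03% of all genes. Under butyrate 5 were higher (6 with equal sums) and 1, *Myc*, was lower, beside 7.7% and 4.7%. *Nr1h3*, which encodes the sterol sensor LXRα, had 1.02 and 0.765 in WT, and 1.50 and 1.61 in LNCKO. *Nr4a1*, an orphan nuclear receptor of monocytes, had 0.840 and 0.511 in WT, and 1.62 and 1.23 in LNCKO, so that for both genes the LNCKO libraries were above the WT libraries.

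For the 3 factors with the widest range, the genes with the nearest profile over the 4 libraries were found by the Euclidean distance of log2 FPKM, each centred on its own mean. They were *Pard6a* (0.0175), *Fuz* (0.0876) and *Dtx2* (0.0896) for *Gfi1*, *Acap3* (0.0247), *Zfp992* (0.0316) and *Foxred2* (0.0647) for *Cebpe*, and *Rnase4* (0.0285), *Cebpzos* (0.0406) and *Slc25a45* (0.0516) for *Cebpd*. A profile has 4 points only.

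Markers of other cells differed as well. Of the 3 erythroid markers at 1 FPKM or more, all of them hemoglobin genes, 1 was higher with butyrate in WT, and 3 were higher in each of the other 3 comparisons. *Hba-a1* had 2.97 FPKM without and 3.15 with butyrate in WT, and 10.2 and 28.6 in LNCKO. All 4 basophil and mast cell markers at 1 or more were higher in LNCKO in both treatments. With butyrate 1 was higher and 2 were lower (1 with the median ratio) in WT, and 1 was higher in LNCKO. Both stromal markers at 1 or more, *Col1a1* and *Col1a2*, were lower in LNCKO in both treatments, lower with butyrate in WT (1 of the 2 with the median ratio) and higher with it in LNCKO. The 3 stromal markers under 1 were above control with butyrate in WT, *Dcn* by 1.52-fold, *Cxcl12* by 1.52-fold and *Col3a1* by 1.22-fold, and *Col3a1* was also above WT in LNCKO under butyrate, by 1.17-fold. Of the 3 T and NK cell markers at 1 or more, 1 was higher and 1 lower with butyrate in WT, 0 passed in LNCKO, 1 was higher in LNCKO between the controls (0 with the median ratio), and 1 was higher and 1 lower under butyrate. Of the 2 dendritic cell markers at 1 or more, 1 was lower with butyrate in WT, *Siglech*, and 0 passed in the other comparisons. Of the 8 macrophage markers, 1 was higher and 1 lower with butyrate in WT, and 0 passed between the controls. In LNCKO 2 were lower with butyrate (1 with the median ratio). Under butyrate 1 was higher and 2 were lower in LNCKO than in WT. With the median ratio 0 were higher and 3 lower there, and with equal sums 1 and 1. *Lyz2*, lysozyme, had 1972.0 and 2871.0 in WT, and 1609.5 and 869.9 in LNCKO.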
